A study of Homo sapiens with 6 samples.

Results

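The genes described here are 10 transcripts of the NRF2 (NFE2L2) antioxidant pathway, out of 60668 genes in the deposited table of MiaPaCa-2 cells. They were chosen by symbol: the transcription factor NFE2L2, its inhibitor KEAP1, its DNA-binding partner MAFG, and NQO1, TXNRD1, TXN, SRXN1, PRDX1, OSGIN1 and ABCC1, which are known as NRF2 targets in the thioredoxin, quinone reductase and export branches of the response. This choice, and that of the further lists below, was made with earlier results of these data known. MiaPaCa-2 is an established human pancreatic ductal adenocarcinoma (PDAC) cell line, and the sample titles name no engineered allele or drug in either group. The cells were cultured for 48 h in medium with 2.5 mM glucose (low glucose, 3 libraries) or in control medium, given as 25 mM glucose by the study (control, 3 libraries), and the study calls the libraries of a group biological replicates. The treatment field of the labels gives 2.5 mM for every sample, and the titles name the control samples. Both groups are 1 cell line in culture, without stroma, vessels or immune cells.

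NRF2 is held at a low level by KEAP1, an adaptor that presents it to the CUL3 ubiquitin ligase for degradation. Oxidants and electrophiles modify cysteines of KEAP1, NRF2 then accumulates, pairs with a small MAF protein (MAFG, MAFF or MAFK) and binds antioxidant response elements in the promoters of its targets. Because this switch acts on protein stability and location, the mRNA levels of NFE2L2 and KEAP1 are not a measure of NRF2 activity, whereas target transcripts are commonly used to follow it. In the thioredoxin branch, TXNRD1 uses NADPH to reduce thioredoxin (TXN), thioredoxin reduces peroxiredoxins such as PRDX1, and SRXN1 rescues peroxiredoxins that have been overoxidized by peroxide. The study asked how PDAC cells withstand oxidative stress when glucose is scarce, and the comparison of low glucose with control addresses which of these transcripts changed.

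Antioxidant response elements are usually described by the core TGACNNNGC, and sites of NRF2 paired with MAF by TGANTCAGC, and both strings were searched on both strands of the members' promoters (TGACTCAGC matches both strings). RefSeq promoters (GRCh38.p14, 11 start sites) were found for 8 of the 10 members, and PRDX1 and ABCC1 were not matched. Within 1000 bases before to 50 bases after a start, TGACNNNGC was found at 6 of the 11 member starts (5 members, NQO1, OSGIN1, TXN, TXNRD1 and KEAP1), and in 33.7% of the 35116 promoters of all genes. The rarer TGANTCAGC, in 3.70% of those promoters, was found at 3 of the 11 starts, those of NQO1, OSGIN1 and SRXN1. These are matches of letters, not shown to be bound in these cells. The stretches with TGANTCAGC are printed because TGANTCAGC was the rarer string, with the match in capitals and 10 bases on each side:
NQO1: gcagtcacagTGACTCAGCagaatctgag
OSGIN1: ttcataagcgTGAGTCAGCaggggcccgt
SRXN1: aaactcacccTGAGTCAGCccgcccgggc
The NQO1 stretch lies at chr16:69726997-69727025 (minus strand), 455 bases before the start, that of OSGIN1 at chr16:83953131-83953159 (minus strand, 99 bases before) and that of SRXN1 at chr20:653454-653482 (minus strand, 272 bases before). For the thioredoxin pair and KEAP1, the matches to TGACNNNGC show how far the variable middle of the core differs between members:
TXNRD1 first start: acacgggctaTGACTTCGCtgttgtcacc
TXNRD1 second start: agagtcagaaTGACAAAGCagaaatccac
TXN: tgctccagctTGACACAGCggtttagtgc
KEAP1 second start: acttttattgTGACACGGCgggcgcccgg
The TXNRD1 stretches are at chr12:104215670-104215698 (plus strand) and chr12:104286920-104286948 (minus strand), 99 and 102 bases before their starts. The TXN stretch is at chr9:110257070-110257098 (plus strand), 581 bases before the start, and that of KEAP1 at chr19:10502807-10502835 (minus strand), 54 bases before its second start. In the narrower window of 300 bases, TGACNNNGC was left at 3 of the 11 starts, both of TXNRD1 and the second of KEAP1 (13.3% of all promoters), and TGANTCAGC at 1, that of OSGIN1 (1.36%). A further TGACNNNGC match each in KEAP1, TXNRD1 and OSGIN1 is not printed. No match was found at the RefSeq starts of NFE2L2 or MAFG in either window, and starts not listed there were not searched.

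The control libraries held 9741183 to 10190154 reads on genes and the low-glucose libraries 10595408 to 13733477, and each member had between 140 and 13450 reads in every library. Mitochondrially encoded genes took 2.47% to 3.82% of all reads in the control group and 4.65% to 5.12% under low glucose. Of the markers, KRT8, KRT18, KRT19 and VIM were abundant, EPCAM had at most 1 read, and CDH2, PTPRC and CD3E had 0 reads in all libraries. Summed levels on the TPM scale (reads per base of exon, with the same total in every library) were lower in low glucose for the 6 epithelial markers (2376 to 2457 against 4150 to 5075), the 5 fibroblast markers (51.1 to 53.0 against 74.8 to 81.6), the 4 leukocyte markers (2.29 to 3.72 against 5.42 to 9.31) and the 3 endothelial markers (0.469 to 0.588 against 7.77 to 9.42), and higher for the mesenchymal pair of VIM and CDH2 (4441 to 4567 against 3380 to 3811). Few genes carried these sums: KRT8, KRT18 and KRT19 (which all fell) the epithelial one, COL1A2 the fibroblast one (76.8 TPM in control and 51.4 in low glucose), CD14 most of the leukocyte one (6.12 and 2.49) and CDH5 the endothelial one (8.69 and 0.507). MUC1 and KRT7 were at 1.23-fold and 1.87-fold and COL1A1 and PDGFRB at 1.5004-fold and 4.42-fold in low glucose, none of which passed the test described next. The part of these shifts in the results below was not tested. Values below are normalized counts, that is, read counts divided by 1 size factor per library. Fold changes are log2 differences of value + 1, low glucose over control, with limma's two-sided test and Benjamini-Hochberg adjustment across the 21101 genes whose mean value reached 1. All 10 members passed this filter.

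Of the 10 members, 4 rose in low glucose (OSGIN1, MAFG, NFE2L2 and NQO1), 1 fell (KEAP1), and 5 did not pass the test (TXN, SRXN1, PRDX1, TXNRD1 and ABCC1). The background was high: at the same threshold 30.9% of all genes tested were called, 14.7% as higher and 16.2% as lower. In the fit restricted to genes with a mean of at least 10, 6458 of 15235 genes were called, and 5 of the 10 members. The median log2 fold change was 0.12 over the members and 0.05 over all genes tested. The low-glucose and control values did not overlap for 6 members, against 43.9% of all genes. The rises of OSGIN1 and MAFG passed in all 16 alternative fits (10 other settings and 6 fits without 1 library), whereas those of NFE2L2 and NQO1 and the fall of KEAP1 were small and depended on the setting. In bulk RNA a lower level in every cell and fewer cells with the transcript cannot be told apart.

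**Figure D1:**
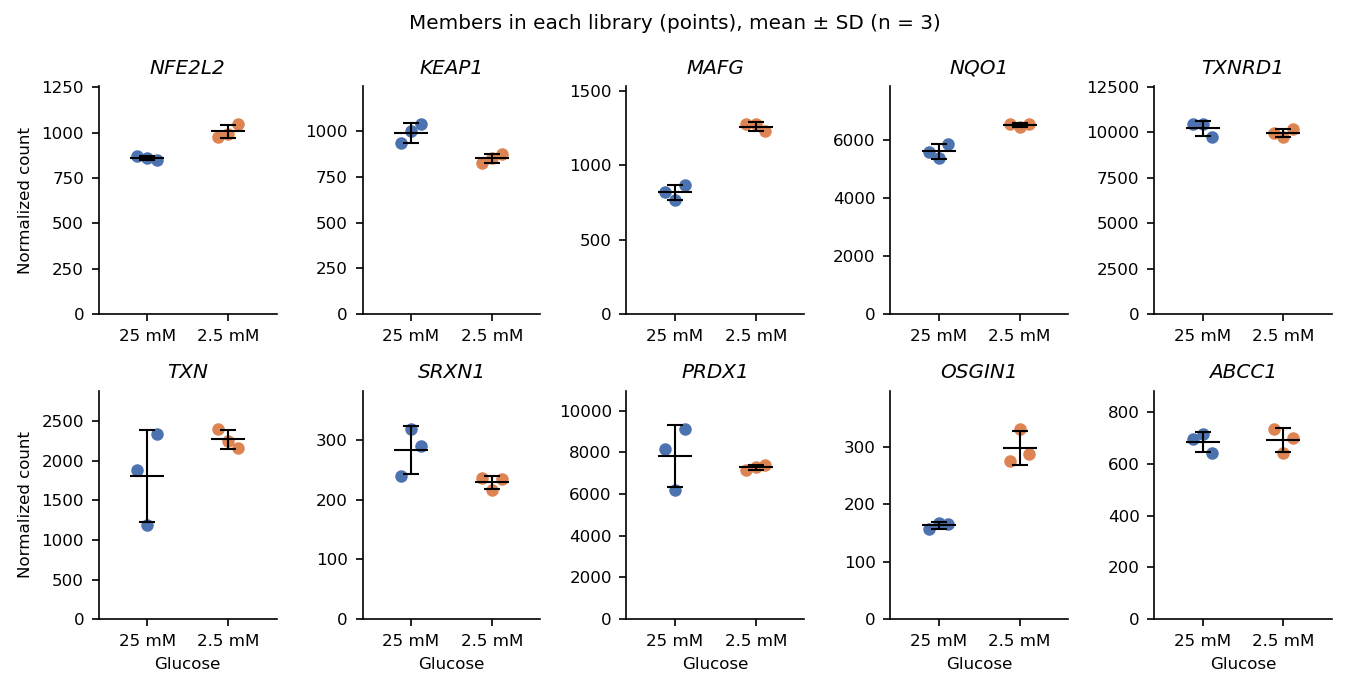
Normalized counts (vertical axes, starting at 0) of the 10 members in each library (points) at 25 mM and 2.5 mM glucose, with the mean ± SD of the 3 libraries of a group. The 3 low-glucose points lie above all control points for NFE2L2, MAFG, NQO1 and OSGIN1 and below them for KEAP1 and SRXN1, while the control points of TXN spread from 1190.4 to 2338.

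NFE2L2 (ENSG00000116044.16, chr2:177218667-177392756 of hg38, minus strand) encodes NRF2 itself. Its normalized counts were 869, 860.5 and 847 in the control libraries of 9741183, 10126218 and 10190154 reads, and 976, 995 and 1047 in low glucose replicate 1, replicate 2 and the library of 13733477 reads. All low-glucose values were above all control values, and the control values lay close together (coefficient of variation 1.26%). The mean was 1006 ± 36.7 in low glucose and 858.9 ± 10.8 in control (SD, n = 3 each), 1.17-fold higher. This is a log2 fold change of 0.23 (95% interval 0.07 to 0.39, standard error 0.0754, limma adjusted p = 0.0328), and 67.7% of all genes tested changed by more. The call was lost in 2 of 10 settings (TPM, adjusted p = 0.134, and a variance model without trend, 0.108) and in 4 of the 6 fits without 1 library, those without the control library of 9741183 reads (0.0790), low glucose replicate 1 (0.0763), replicate 2 (0.0994) or the low-glucose library of 13733477 reads (0.142). NFE2L2 shares 3509 exon bases with HNRNPA3 on the other strand, which had 722% of its mean value and moved the other way (log2 fold change -0.38, limma adjusted p = 0.00132). ENSG00000213963, on the same strand with 2037 shared exon bases, had 3.27% of its mean value and rose (0.94, limma adjusted p = 0.0250), and ENSG00000222043, on the other strand with 190 shared bases, had 9.73% (0.23, not passed). The libraries kept strand, but the strand setting of the counting is not given in the sources used here.

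KEAP1 (ENSG00000079999.14, chr19:10486125-10503558, minus strand), the inhibitor, was the one member that fell. The values were 932, 999 and 1037 in the control libraries, in the same order, and 822, 852 and 873 in low glucose. The groups did not overlap, and the gap between the highest low-glucose and the lowest control value was smaller than the range of the control values. The mean fell by 14.2%, from 989 ± 53.2 to 849 ± 25.3 (SD, n = 3 each), with a log2 fold change of -0.22 (standard error 0.0785, 95% interval -0.39 to -0.05, limma adjusted p = 0.0466). This call held in 3 of 10 other settings and in 1 of 6 fits without 1 library. Without low glucose replicate 1 the adjusted p was 0.168, without replicate 2 it was 0.133 and without the library of 13733477 reads 0.0948. Leaving out the control libraries of 9741183 and 10190154 reads gave 0.0547 and 0.0829, edgeR on the recovered reads 0.0523 and DESeq2 0.0683. The size of the fall depended on the scaling: the log2 fold change was -0.14 with library-size scaling (adjusted p = 0.199) and -0.07 with quantile normalization (0.528).

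The ratio of NFE2L2 to KEAP1, both in TPM, was 0.223, 0.206 and 0.195 in the control libraries and 0.283, 0.279 and 0.286 in low glucose. It was higher in all low-glucose libraries than in any control library, by 0.45 on the log2 scale, which is the sum of 2 changes in opposite directions. With 3 libraries against 3, the exact permutation test (two-sided) gave p = 0.1, the smallest it can give, and 0.3 after Benjamini-Hochberg adjustment over the 3 ratios compared.

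MAFG (ENSG00000197063.11, chr17:81918270-81927735, minus strand), a small MAF that forms the DNA-binding pair with NRF2, rose more clearly. Control values were 824, 769 and 870, and low-glucose values 1278, 1276 and 1230.5. The groups did not overlap, and the gap between them was larger than the spread within either. The mean rose from 821 ± 50.5 to 1262 ± 27.1 (SD, n = 3 each), 1.54-fold, with a log2 fold change of 0.62 (standard error 0.0782, 95% interval 0.45 to 0.79, limma adjusted p = 3.65e-05). Over the 16 other fits the value lay between 0.55 and 0.77 and the adjusted p did not exceed 0.0134. ENSG00000264769, on the other strand with 224 shared exon bases, had 14.2% of MAFG's mean and a log2 fold change of 0.63 (limma adjusted p = 0.00432). SIRT7, on the same strand with 105 shared exon bases, had 53.2% of it and a log2 fold change of 0.18, which did not pass.

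The targets outside the thioredoxin branch ranged from no detected change to the largest rise among the members. OSGIN1 (ENSG00000140961.14, chr16:83931311-83966332, plus strand), an oxidative stress-induced growth inhibitor, had control values of 157, 168 and 166 and low-glucose values of 276, 332 and 289. The lowest low-glucose library was well above the highest control library. The mean rose 1.83-fold, from 163.7 ± 5.97 to 298.9 ± 29.3 (SD, n = 3 each), and the log2 difference reached 0.86 (95% interval 0.62 to 1.10, standard error 0.112, limma adjusted p = 4.82e-05), with 17.0% of all genes changed by more. It lay between 0.74 and 0.94 in the 16 other fits. OSGIN1 shares 457 exon bases with MLYCD on the same strand, which had a log2 fold change of -0.06.

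NQO1 (ENSG00000181019.13, chr16:69706996-69726668, minus strand) encodes the quinone reductase that is the classical readout of NRF2, and carries the TGACTCAGC stretch printed above. Its values were 5578, 5386 and 5882 in control and 6549, 6439 and 6558 in low glucose. The groups did not overlap, and the low-glucose libraries lay closer together (coefficient of variation 1.02%) than the controls (4.46%). The mean was 6515 ± 66.3 against 5615 ± 250.4 (SD, n = 3 each), 1.16-fold higher, with a log2 fold change of 0.22 (standard error 0.0736, 95% interval 0.06 to 0.37, limma adjusted p = 0.0379). The call held in 7 of 10 other settings and was lost in TPM (0.101), without the variance trend (0.128) and without a filter on low values (0.0666). It also held in 2 of 6 fits without 1 library, and was lost without the control library of 9741183 reads (0.119), low glucose replicate 1 (0.135), replicate 2 (0.124) or the low-glucose library of 13733477 reads (0.125). ENSG00000261602, with 575 shared exon bases on the other strand, had 11.3% of its mean value and a log2 fold change of 0.18.

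ABCC1 (ENSG00000103222.19, chr16:15949138-16143257, plus strand), an exporter of glutathione conjugates, had control values of 696, 716 and 644 and low-glucose values of 736, 642 and 702. The control values lay inside the range of the low-glucose values. The mean was 693.5 ± 47.5 in low glucose and 685.3 ± 37.0 in control (SD, n = 3 each), with a log2 fold change of 0.02 and a 95% interval of -0.17 to 0.20 (limma adjusted p = 0.910), and no alternative fit called it.

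**Figure D2:**
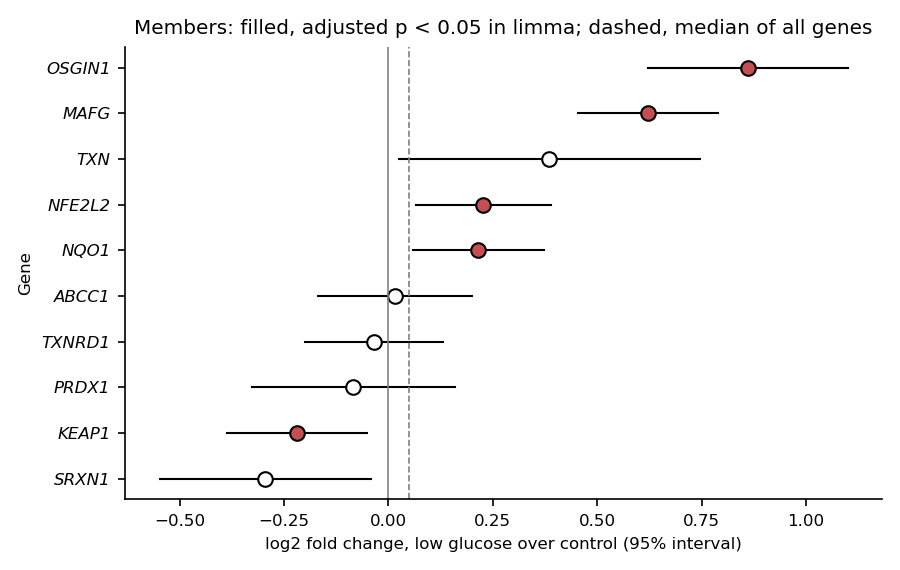
Log2 fold changes of the 10 members, low glucose over control (points; filled where limma's adjusted p was under the threshold), with 95% intervals (lines); the dashed line marks the median of all genes tested, 0.05. OSGIN1 and MAFG stand to the right of the other members, TXN and SRXN1 have the widest intervals, and those of TXNRD1, PRDX1 and ABCC1 include 0.

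In the thioredoxin branch no member passed the test. TXNRD1 (ENSG00000198431.16, chr12:104215779-104350307, plus strand), thioredoxin reductase, had the most reads of the members, with values of 10458, 10460.5 and 9736 in control and 9982, 9737 and 10191 in low glucose. The low-glucose values lay within the range of the control values. The mean was 9970 ± 227 against 10218 ± 417 (SD, n = 3 each), and the interval of the log2 fold change, -0.20 to 0.13 around -0.03, leaves room for a change of that size in either direction (limma adjusted p = 0.772). It was called in 0 of the 16 other fits, and its sign turned with scaling by library size (0.05) and quantile normalization (0.07).

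TXN (ENSG00000136810.13, chr9:110243810-110256507, minus strand), thioredoxin, had control values of 1889, 1190.4 and 2338 and low-glucose values of 2404, 2250.3 and 2168. The control library of 10126218 reads was far below the other controls, and the highest control value lay between the low-glucose values. The mean was 2274 ± 120 in low glucose and 1806 ± 578 in control (SD, n = 3 each), with a log2 fold change of 0.39 (standard error 0.168, 95% interval 0.03 to 0.75) that did not pass after adjustment (limma adjusted p = 0.0982). The control libraries decided the value: without the one of 10126218 reads it was 0.11 (adjusted p = 0.254), and without the one of 10190154 reads 0.60 (adjusted p = 0.00138). Quantile normalization also called it (0.58, adjusted p = 0.0150), whereas DESeq2 gave an adjusted p of 0.401. The 7 TXN pseudogenes in the table had at most 2 reads in any library.

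PRDX1 (ENSG00000117450.14, chr1:45510914-45542732, minus strand), a peroxide-reducing enzyme that thioredoxin recharges, had control values of 8139.8, 6198 and 9126 and low-glucose values of 7159.7, 7293 and 7399.8. The low-glucose libraries lay close together inside the wide control range, in which the library of 10126218 reads was again the lowest. The mean was 7284 ± 120 against 7821 ± 1489.8 (SD, n = 3 each), with a log2 fold change of -0.08 (95% interval -0.33 to 0.16, limma adjusted p = 0.621). Without the control library of 10126218 reads the value was -0.24 and passed (adjusted p = 0.00126), and without that of 10190154 reads it was 0.04. MMACHC shares 501 exon bases on the other strand and had 35.1% of PRDX1's mean and a log2 fold change of -0.04.

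SRXN1 (ENSG00000271303.1, chr20:646615-653200, minus strand), sulfiredoxin, had control values of 239.9, 319 and 289.9 and low-glucose values of 236, 216 and 235. All low-glucose values were below all control values, the lowest control library by a narrow margin. The mean was 229 ± 10.9 against 282.9 ± 39.9 (SD, n = 3 each), with a log2 fold change of -0.30 (standard error 0.118, 95% interval -0.55 to -0.04) that did not pass (limma adjusted p = 0.0730). Among the other fits, quantile normalization (0.0404), TPM (0.0476) and the fit without the control library of 9741183 reads (log2 fold change -0.41, 0.0269) called it. ENSG00000270299 lies on the same strand over 2292 of the 2528 exon bases of SRXN1 and had at most 9 reads.

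**Figure D3:**
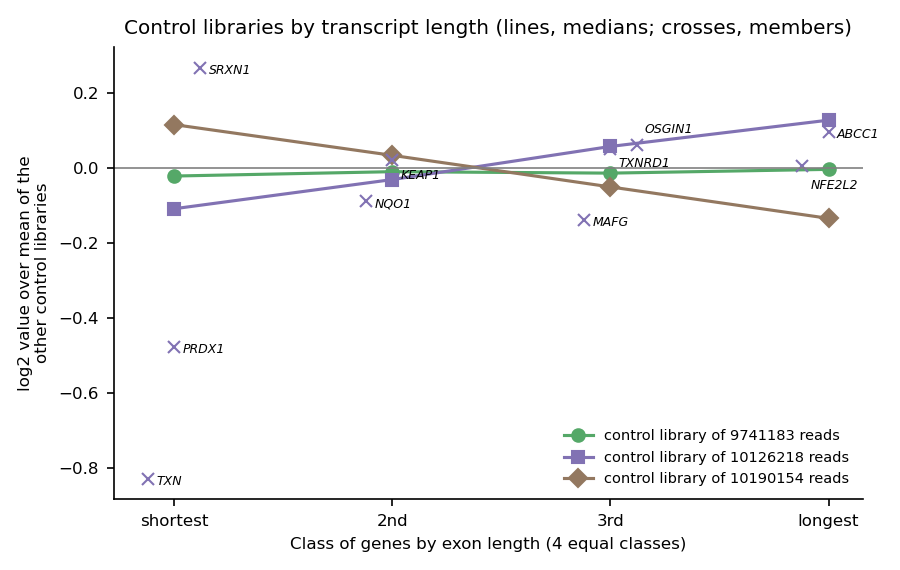
For each control library, the median log2 value over the mean of the other control libraries (vertical axis) in 4 classes of 13732 genes ordered by exon length (horizontal axis, lines), with the members in the library of 10126218 reads as crosses. The line of that library climbs from -0.11 to 0.13 and that of the 10190154-read library falls from 0.11 to -0.13, and TXN and PRDX1 lie below the line in the shortest class while SRXN1 lies above it.

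The control libraries, in which TXN and PRDX1 spread widely, also differed from each other by a gradient along exon length. In the library of 10126218 reads, genes in the shortest of 4 classes by exon length stood at a median of -0.11 (log2, against the other controls) and those in the longest at 0.13. The library of 10190154 reads had the opposite gradient, from 0.11 to -0.13, and that of 9741183 reads had none of this size (-0.02 to -0.00). TXN, PRDX1 and SRXN1 are all in the shortest class, and in the library of 10126218 reads TXN was at 0.563-fold, PRDX1 at 0.718-fold and SRXN1 at 1.203-fold of the other controls. The TXN and PRDX1 gaps were larger than the median of this class, which spans 65 to 2773 exon bases, and the SRXN1 gap had the other sign. The dip was not particular to TXN and PRDX1. PRDX2, PRDX3, PRDX4, PRDX5 and PRDX6, picked after their values were seen, also had their lowest control value in that library. PRDX3 had 1502 there against 2039 and 2307, and PRDX5 605 against 762 and 952. PRDX3, with 3379 exon bases, is in the second class, whose median in that library was only -0.03. The share of all genes with their lowest control value in that library was not counted. The coefficient of variation of TXN in control, 32.02%, was exceeded by 5.61% of the 13769 genes with mean values of 20 or more, whose median was 11.4%. The part of length in these values was not tested.

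The other ratios, both within the branch, were compared in TPM. TXNRD1 over TXN was 0.833, 1.32 and 0.627 in control and 0.625, 0.651 and 0.708 in low glucose, and the groups overlapped (log2 difference -0.42, exact permutation p = 0.3, adjusted 0.45). SRXN1 over PRDX1 was 0.0196, 0.0342 and 0.0211 in control and 0.0219, 0.0197 and 0.0211 in low glucose (log2 difference -0.21, exact permutation p = 0.8, adjusted 0.8). For both, the control library of 10126218 reads held the highest ratio, and without it the differences were -0.13 and 0.04, the second with its sign turned. Without the control library of 10190154 reads they were -0.67 and -0.31.

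Per kilobase of the canonical transcript, PRDX1, TXNRD1, TXN and NQO1 stood well above the regulators, and SRXN1, ABCC1 and OSGIN1 below them in control. In control, PRDX1 was highest (8277 normalized counts per kilobase), followed by TXNRD1 (2647), TXN (2450.1) and NQO1 (2227), which overlapped in their library ranges each with the next. KEAP1 (386), NFE2L2 (351), MAFG (162), SRXN1 (112), ABCC1 (105) and OSGIN1 (85.2) followed, where only SRXN1 and ABCC1 were neighbours with overlapping ranges. In low glucose the levels per kilobase were 7708 for PRDX1, 3085 for TXN, 2584 for NQO1 and 2583 for TXNRD1, of which the last pair overlapped. NFE2L2 (411) then stood above KEAP1 (331), and MAFG (249), OSGIN1 (156), ABCC1 (107) and SRXN1 (90.6) followed with no overlap between neighbours. In low glucose the order of NFE2L2 and KEAP1 depended on the length used, and in control KEAP1 was higher on both scales. NFE2L2 has 14975 bases of annotated exon but 2446 in its canonical transcript, and per kilobase of all exon bases it was the ninth member in both groups (57.4 in control and 67.2 in low glucose), below KEAP1 (277 and 238).

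**Figure D4:**
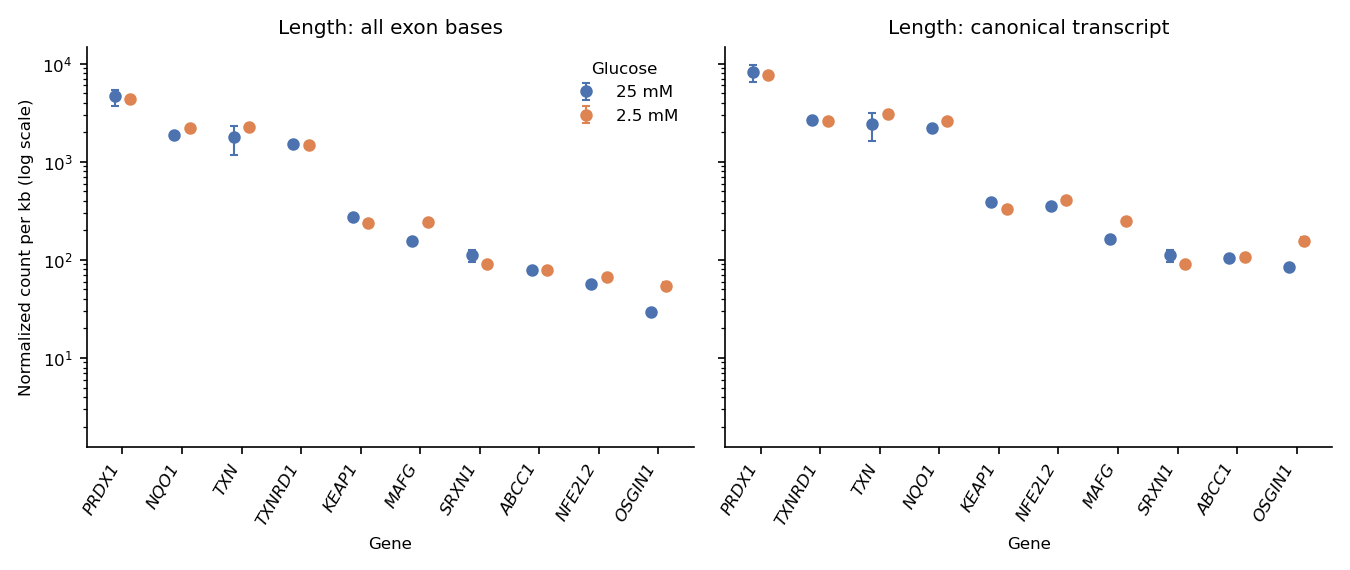
Levels of the 10 members in normalized counts per kilobase (log scale) at 25 mM and 2.5 mM glucose, with length taken as all exon bases (left) or as the canonical transcript (right); points are means and bars the lowest and highest of 3 libraries. PRDX1 is the highest member in both panels, and NFE2L2 moves from the ninth place on the left to beside KEAP1 on the right.

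The other regulators of NRF2, a list of 22 genes (ubiquitin ligase parts, competitors for KEAP1, other CNC and MAF factors, coactivators and repressors), held 5 that rose, 5 that fell and 12 that did not pass, with a median log2 fold change of -0.12. These counts are 45.5% of the list called, against 30.9% of all genes tested. Restricted to genes with a mean of at least 10, 10 of 20 were called, against 6458 of 15235 genes. SYVN1 (HRD1), an endoplasmic reticulum ubiquitin ligase that can target NRF2, rose most, from 464.3 ± 13.7 to 1423 ± 142 (SD, n = 3 each; log2 fold change 1.61, limma adjusted p = 1.86e-08). SQSTM1 (p62), which sequesters KEAP1 and is itself an NRF2 target, rose from 4802 ± 104 to 10902 ± 121 (1.18, 5.60e-08). MAFF, another small MAF, rose from 224.7 ± 26.8 to 430.4 ± 29.8 (0.94, 2.01e-05), and NFE2L1, the NRF2 relative that drives proteasome genes, from 2536 ± 308 to 4016 ± 141 (0.67, 5.40e-05). CUL3, the scaffold of the KEAP1 ligase, fell by 0.69 on the log2 scale (1612 ± 111 to 994.9 ± 36.7, limma adjusted p = 1.46e-05), AMER1 by 0.66, PGAM5, a mitochondrial phosphatase that binds KEAP1, by 0.55, and the nuclear receptor RXRA by 0.38. Of the remaining small MAF and the repressor that competes for MAF, both picked after their values were seen, MAFK did not pass (log2 fold change -0.08, limma adjusted p = 0.556), and BACH1 rose by 0.32 (0.0272).

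A further list of 26 genes held thioredoxins, peroxiredoxins and glutaredoxins. It also held genes named as thioredoxin-like and partners such as the sestrins and ribonucleotide reductase, so not every gene is a redox enzyme of these systems. Of the 26, 2 rose and 9 fell (42.3% called, against 30.9% of all genes), with a median log2 fold change of -0.19 (0.05 over all genes). Restricted to genes with a mean of at least 10, 12 of 23 were called, against 6458 of 15235 genes. TXNIP, the thioredoxin inhibitor whose transcription follows glucose, had values of 1164, 1086 and 1138 in control and 534, 528 and 492 in low glucose, with no overlap. It fell by 1.12 on the log2 scale (limma adjusted p = 2.38e-07, standard error 0.0795). RRM2 and RRM1, the subunits of ribonucleotide reductase, which thioredoxin supplies with electrons, fell by 0.96 (4837 ± 79.8 to 2491 ± 84.2) and by 0.56, and the mitochondrial glutaredoxin GLRX5 fell by 0.54. The remaining falls were smaller: log2 fold changes of -0.43 for TXNDC9, -0.33 for PRDX6, -0.30 for TXNL4A, -0.28 for TXNL1 and -0.26 for PRDX4. PRDX2 and PRDX3 did not pass. The rises were those of SESN2, a stress-induced sestrin (592.6 ± 15.7 to 1736 ± 63.8, log2 fold change 1.55, limma adjusted p = 9.93e-09), and PRDX5, a peroxiredoxin of mitochondria and peroxisomes (773 ± 174 to 1323 ± 216, 0.78, adjusted p = 0.000873). The split depended on the scaling and on the control libraries: 3 were called as higher and 6 as lower with library-size scaling, 4 and 5 with quantile normalization, 3 and 13 without the control library of 10126218 reads, and 3 and 7 without either of the other control libraries.

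Among 40 other targets of NRF2, 37 were tested, and 18 rose, 3 fell and 16 did not pass (56.8% called, against 30.9% of all genes). The list was chosen with earlier results of these data known, so its share, split and median describe these genes and are not separate support. Restricted to genes with a mean of at least 10, 21 of 35 were called, against 6458 of 15235 genes. The median log2 fold change of 0.31 was above that of all genes (0.05), and 30 of the 37 were above 0, as were 11314 of all 21101 genes. GPX2, AKR1B10 and CES1 were below the filter. AKR1C1, an aldo-keto reductase, rose from 1611 ± 76.8 to 6237 ± 155 (log2 fold change 1.95, limma adjusted p = 1.19e-09), and AKR1C2 by 1.42, although the split of reads between these near-identical paralogs is uncertain. ABCC3, an organic anion exporter, rose from 44.7 ± 3.45 to 163 ± 6.12 (1.84, 9.17e-07), and HMOX1, heme oxygenase, from 180.2 ± 4.28 to 462 ± 7.94 (1.35, 2.21e-07). The genes that fell were CBR3, a carbonyl reductase, by 0.88, the taurine transporter SLC6A6 by 0.53 and the transketolase TKT of the pentose phosphate pathway by 0.49. The subunits of glutamate-cysteine ligase, the first enzyme of glutathione synthesis, were picked after their values were seen: the catalytic GCLC rose from 334.6 ± 18.6 to 594 ± 49.0 (0.82, limma adjusted p = 1.62e-05), and the modifier GCLM was at 3117 ± 39.7 and 3121 ± 190 (95% interval -0.16 to 0.16). Of the 21 genes named by rule from the 3 lists, 19 passed in all 16 other fits, and RXRA and PRDX5 each missed in 1. These genes had been picked as the largest changes already past the threshold, and every fit used the same libraries, so this is not separate support.

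**Figure D5:**
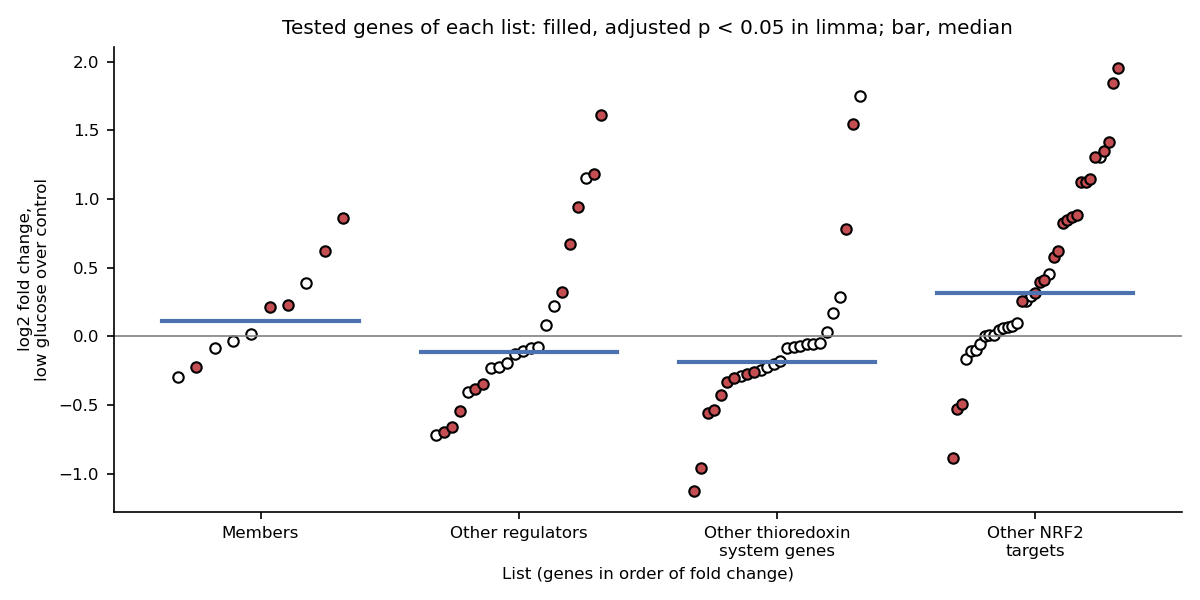
Log2 fold changes of every tested gene (points; filled where limma's adjusted p was under the threshold) in the 10 members and 3 further lists, with each list's median (bar). The medians are 0.12 for the members, -0.12 for the 22 other regulators, -0.19 for the 26 other thioredoxin system genes and 0.31 for the 37 other NRF2 targets.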

How the data were processed

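Reads were 150-base paired-end reads of strand-keeping libraries from 6 samples. The authors trimmed them with Trim Galore, mapped them to hg38 with STAR 2.7.0e and used DESeq2; RSEM is in the study's software list, but whether it made these counts, the strand setting and the annotation are not given in the sources used here. Each deposited value is a count-scale signal: the authors divided gene counts by 1 size factor per library, and 100% were whole reads within 0.01 when multiplied back.

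Labels name the table columns of low glucose replicates 1 and 2, and the other 4 were assigned to groups because the names form 2 runs of 3. Gencode 44 lengths matched 99.5% of identifiers (328 genes had none). Members and lists were chosen with earlier results of these data known. The test was limma 3.58.1 (R 4.3.3, lmFit, eBayes with trend, all 6 libraries, threshold 0.05) on log2(value + 1) for genes with a mean of at least 1. It was also run on simulated reads, with larger changes than those of NFE2L2, KEAP1 and NQO1 and no length gradient between libraries. That run cannot speak to the calls of these 3 genes. Ratios used exact permutation tests. All members are named, and of each other list up to 4 rises and 4 falls with a mean of at least 20, largest first, and TXNIP; overlapping genes and pseudogenes are given as limits. edgeR 4.0.16 and DESeq2 1.42.0 ran on the recovered reads as alternatives. Promoters and motifs were read from RefSeq and hg38 (Python 3.11.15, pandas 2.3.3), with every RefSeq promoter start found for a gene searched.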

Additional observations from a re-analysis of the deposited data

How the results depend on the processing

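No paired analysis was possible because, of 6 table columns, 4 carry no replicate number, so the planned fit with a replicate block was not run. Each member had at least 140 reads in every library, and the effect of depth was not tested. The exact permutation test of the ratios cannot go below 0.1 with 3 libraries per group. The number of members called, 5, was 3 without a filter on low values and 2 without the variance trend, and 2 to 6 without 1 library (2 without any 1 of the low-glucose libraries, 3 without the control library of 9741183 reads). The same count was 4 with edgeR, DESeq2, TMM factors and library-size scaling, each time MAFG, NFE2L2, NQO1 and OSGIN1. It was also 4 in TPM, but there the genes were KEAP1, MAFG, OSGIN1 and SRXN1. Quantile normalization gave 6, without KEAP1 and with TXN and SRXN1 added. Without the trend, the 6528 genes called in all became 4090 and the 11 thioredoxin system genes 5; leaving out 1 library gave 4319 to 7251 (fewest without low glucose replicate 1) and 7 to 16 (fewest without replicate 2). Directions reversed for members that were not called: TXNRD1 with library size (0.046) and quantile normalization (0.067), PRDX1 with quantile normalization (0.088) and without the control library of 10190154 reads (-0.24 to 0.036 over the fits without 1 library), and ABCC1 in TPM (-0.044), without the same control library and without low glucose replicate 1 (-0.028 to 0.071 over those fits). Calls over all genes split into 3111 higher and 3417 lower, but into 3935 and 2647 with library-size scaling and 1930 and 3496 in TPM. The other regulators (7 to 11 called) and targets (16 to 23) stayed within 1.5 times in all 16 fits. Without 1 library the log2 difference of the ratio NFE2L2 over KEAP1 lay between 0.40 and 0.50, that of TXNRD1 over TXN between -0.67 and -0.13, and that of SRXN1 over PRDX1 between -0.36 and 0.038, where it turned sign without the control library of 10126218 reads. Length by canonical transcript, which changed the order of NFE2L2 and KEAP1 in low glucose, was chosen after seeing the data. The cause of these shifts was not tested.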
